A study of Mus musculus with 19 samples.

Results

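The arrays of the developing mouse ovary at gestation day 12 (gd12) were compared with those at gestation day 11 (gd11), the interval in which primordial germ cells settle in the gonad. The comparison takes every array titled gd12 and every array titled gd11, which are 6 of the 19 samples of the series and 6 of its 18 ovary arrays, with 3 arrays at each stage. All animals were wild-type females of CD-1, an outbred strain, conceived within a mating window of 2 hours. The gd11 embryos were at Theiler stage 18 and the gd12 embryos at Theiler stage 20. The gd12 samples (numbers 13, 14 and 15) are labelled ovary. The gd11 samples differ in the tissue collected: samples 16 and 18 are labelled gonad with mesonephros and sample 19 is labelled gonad alone. Samples 18 and 19 came from the same dam. The sample labels describe these samples as pools of 3, whereas the text of the series gives each as the ovaries of a single animal, so the number of embryos behind an array is not settled. RNA of the whole organ was amplified in 2 rounds and hybridised to Affymetrix Mouse430_2 arrays. The question is what changed in the gonad between the stages, and which changes hold against the only gd11 array that is labelled free of mesonephros.

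Primordial germ cells arise outside the embryo proper, migrate through the hindgut and dorsal mesentery, and enter the genital ridges, where they divide, begin to express germ cell genes such as Dazl and Ddx4, and later enter meiosis in the ovary. The genital ridge forms by thickening of the coelomic epithelium on the ventromedial face of the mesonephros, a transient kidney of tubules and a duct that lies against the gonad at these stages. Its somatic cells express transcription factors such as Wt1, Gata4, Lhx9 and Nr5a1, and in the XX gonad the supporting lineage turns to pre-granulosa cells under Wnt4, Rspo1 and Foxl2. Nerves, adrenal primordium, gut mesentery and blood lie close by and can be taken along when the gonad is dissected.

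Throughout, signals are in array units and are listed for gd11 samples 16, 18 and 19 and then for gd12 samples 13, 14 and 15. A log2 change is the mean of gd12 minus the mean of gd11 on the log2(signal + 31) scale, with its standard error (SE) from limma, and understates the change of genes with low signal. A gene was called, and is said to have risen or fallen, at an adjusted p under 0.05 (Benjamini-Hochberg) over all 26431 probe sets tested, in a limma fit of all 18 ovary arrays. Only probe sets whose stage mean exceeded 116.05 (the median over all ovary signals) in 1 stage or more entered the test. No label says how the samples were parted beyond the dam. A p therefore measures the spread between samples within all 6 stages of the fit, not within gd11 and gd12 only. In whole organs fewer cells of a type and less RNA per cell cannot be told apart.

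By correlation and principal components the 3 gd11 arrays did not part by labelled tissue. Samples 18 and 19, one with and one without mesonephros by label, correlated at 0.9796 over the tested probe sets, whereas sample 16 correlated with them at 0.9568 and 0.9575. Sample 16 lay apart from both in the plane of the leading principal components of the 6 arrays (-58 and 42.2, against -20.7 and -32.1 for sample 18 and -20.2 and -32.5 for sample 19). Samples 18 and 19 also share a dam, so dam and tissue cannot be told apart in this order. The summed signal of 17 genes of the mesonephric duct and tubules was 6851, 6878 and 6333 at gd11 and 6137, 7702 and 6719 at gd12. On the array labelled gonad alone this sum was thus at about the level of all others. Cdh16, a cadherin of renal tubules, had signals of 978.8, 1542 and 1546 at gd11 and of 1497, 1517 and 1157 at gd12. Pax8, a factor of the nephric lineage, had 128.6, 117.4 and 96.9 and then 72.86, 123.1 and 118.4. The labelled absence of mesonephros on sample 19 is therefore not visible in this sum, in Cdh16 or in Pax8. Single genes of the list differed in direction. Without samples 16, 18 and 19 in turn, the change of Wnt9b was -0.561, -0.451 and -0.754, so sample 19 was its lowest gd11 array. For Gata3 these changes were -1.24, -0.957 and -0.656, so sample 19 was its highest. For Lhx1 they were 0.455, -0.781 and -0.743. None of these changes was called by limma.

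Other markers did differ between arrays. The summed signal of 21 nervous tissue genes was 53528 on sample 16, against 11129 and 14003 on samples 18 and 19 and 16733, 4430 and 7176 at gd12. Stmn2, a neuronal microtubule regulator, was at 7965 on sample 16 and at 227.3 and 290.6 on samples 18 and 19. The 11 gut and liver genes summed to 2376 and 3092 on samples 16 and 18 and to 719 on sample 19, with 732, 1469 and 1578 at gd12. Of the sum on sample 16, 1792 came from Shh, a ligand that floor plate and notochord share with gut. Ttr, a plasma protein of liver and yolk sac, was at 1676 on sample 18 and between 1.81 and 42.88 on the other 5 arrays. The 13 genes of nephrogenic and renal stromal mesenchyme went the other way and were highest on sample 19 (8805, against 5254 and 5279 on samples 16 and 18, and 4944, 1928 and 3182 at gd12). The 3'/5' signal ratio of Gapdh, a sign of RNA quality, was 2.987 to 3.28 at gd11 and 3.479 to 4.284 at gd12. That of beta-actin was 1.786 and 1.766 on samples 16 and 18, 2.262 on sample 19 and 2.263 to 2.326 at gd12. By the actin ratio sample 19 thus lay next to the gd12 arrays and apart from the other gd11 arrays. The part of either ratio in the results was not tested. Xist, the RNA of the inactive X chromosome, was between 11590 and 18580 on all 6 arrays, as the label female implies, and no Y-linked gene of the list was above 62.82 except a probe set of Sry, at 9.65 to 100.8, which was below the level for testing.

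**Figure D1:**
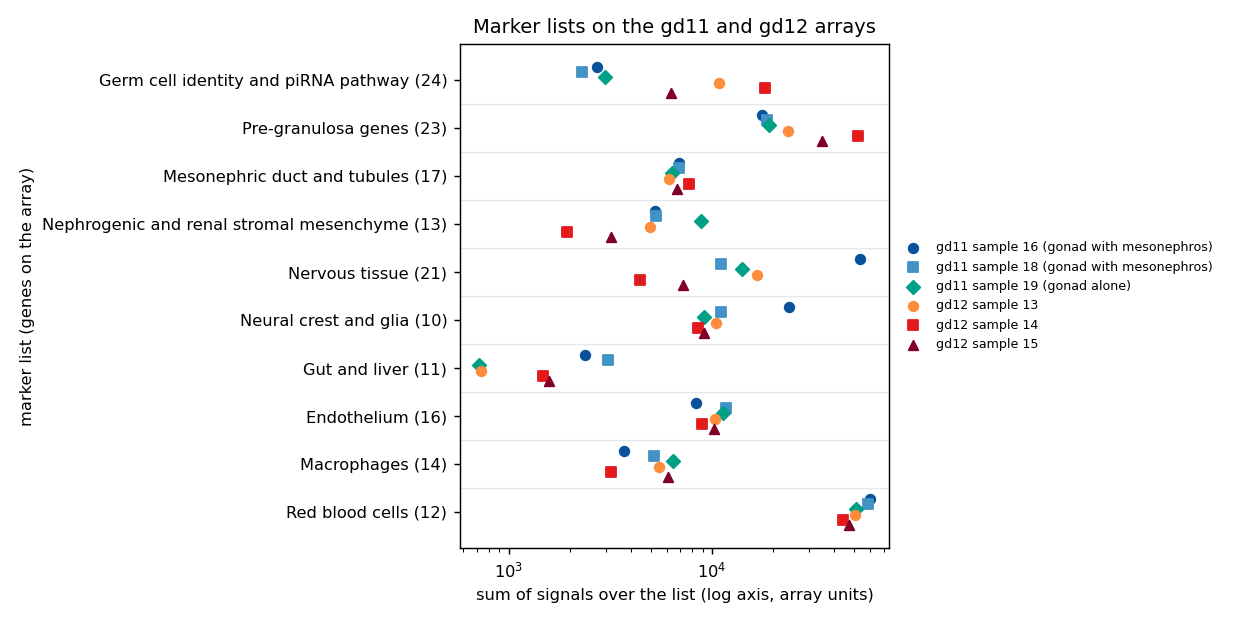
Summed signals (log axis, array units) of 10 marker lists on each of the 3 gd11 and 3 gd12 arrays, with the number of genes of each list on the array in brackets. The mesonephric sums of all 6 arrays lie between 6137 and 7702, whereas the nervous tissue sum of gd11 sample 16 (53528) lies far to the right of the other 5 arrays, and the germ cell sums of the gd12 arrays lie to the right of all gd11 arrays.

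Of 12592 genes tested, 593 were called between gd12 and gd11 (4.71%). More of them rose than fell: 415 were higher at gd12 (3.3% of genes tested) and 178 lower (1.41%). By probe sets 1089 of 26431 were called (4.12%), of which 74.6% were higher. That share depended on the scaling: after median scaling 46.4% of called probe sets were higher, since this scaling moved the median change over all genes from 0.003 to -0.109. Changes below are as deposited and can be read against that shift of about 0.11 on the log2 scale. The number of called probe sets was 339 without gd12 sample 14 and 627 without gd11 sample 16. The arrays of the stages did not overlap for 401 of the 415 higher and 176 of the 178 lower genes, against 3093 of all genes tested (24.6%). Of 89 called genes that are named under the rule given with the methods, none changed direction under any alternative, and 42 were still called when only the 6 compared arrays were fitted. Dll1, which was also called and named, is not among these 89. Where leaving out an array ended the call of such a gene whose values are given below, the array or arrays and the adjusted p without them stand beside it. Values are those of the probe set with the highest mean. For Adm, Col4a5, Col8a1, Col9a1, Hoxa5, Inhbb, Slc26a7, Sox9, Tfap2c and Zfpm2 no further tested probe set was called. Those probe sets changed in the same direction (limma adjusted p 0.088 to 0.977).

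Factors of pluripotency and of primordial germ cells were higher at gd12. Of 22 tested, 14 rose and 0 fell (3.3% of all genes rose), with a median change of 1.26 against 0.003 over all genes. The lists used here were drawn up with earlier results of these data known, so their counts are descriptions. Without gd12 sample 14 the count was 5, and without gd11 sample 16 it was 9. Dppa5a, an RNA-binding protein of pluripotent and germ cells, had signals of 2421, 3240 and 2782 at gd11 and of 9468, 13270 and 7126 at gd12. Every gd12 array was above every gd11 array, and on the log2 scale by more than the spread within either stage (1.77 ± 0.21, limma adjusted p = 0.000129). It was called in all 19 settings tried.

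Dppa3, a maternal factor that protects methylated DNA and marks primordial germ cells, had 213.9, 204.3 and 154.6 and then 739.5, 844.5 and 451.4 (1.64 ± 0.33, limma adjusted p = 0.00758, and 0.0584 without gd12 sample 14). Dppa2, a chromatin factor of pluripotent cells, had 63.79, 85.82 and 114 and then 568.4, 842.8 and 261 (2.19 ± 0.44, limma adjusted p = 0.0074, and 0.0651 without gd12 sample 14). In both genes the groups did not overlap and gd12 sample 15 was the lowest of its stage. Pou5f1, the Oct4 pluripotency factor, had 147.5, 123.7 and 95 and then 331.6, 551.4 and 202.1 (1.27 ± 0.33, limma adjusted p = 0.0337). Its call rested on all arrays together: it was lost without any of 5 of the 6 arrays (limma adjusted p 0.0547 to 0.211), and held without gd12 sample 15. Tfap2c, a factor that specifies primordial germ cells, had 424.2, 586.8 and 819.2 and then 2393, 2949 and 1460 (1.83 ± 0.44, limma adjusted p = 0.0236). Leaving out gd12 sample 13 or 14 or gd11 sample 16 or 18 ended that call (limma adjusted p 0.0605 to 0.134).

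Members that were not called differed in kind. Sox2, which primordial germ cells share with neural progenitors, had 7372, 640.6 and 833 and then 2019, 2668 and 1443, so that gd11 sample 16 lay above every gd12 array and samples 18 and 19 lay below them (limma adjusted p = 0.839). The surface protein gene Ifitm3 had 451.4, 604.8 and 423.9 and then 1261, 1395 and 751.1, without overlap, and missed the threshold (limma adjusted p = 0.0565). Alpl, whose alkaline phosphatase activity is a classic stain of primordial germ cells, had 84.94, 77.75 and 77.22 and then 113, 132.8 and 122.5 (limma adjusted p = 0.291).

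Germ cell identity genes, listed with those of the piRNA pathway (the small-RNA defence of the germline against transposons), included the largest rise of any named gene, that of Dazl. Of 23 tested, 12 rose and 0 fell, with a median of 1.43. Leaving out any 1 array gave 11 to 13, and fitting the 6 compared arrays by themselves gave 9. Dazl, an RNA-binding protein that commits germ cells to gametogenesis, had 298, 97.55 and 445.3 at gd11 and 2990, 4949 and 1285 at gd12 (3.31 ± 0.40, limma adjusted p = 0.000186). The highest gd11 signal was that of sample 19, and the lowest gd12 signal, that of sample 15, was still above it. Against sample 19 alone the change was 2.51 and against samples 16 and 18 it was 3.72, and both differences were called (limma adjusted p = 0.0489 and 0.000269).

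Ddx4, the germ cell RNA helicase also known as vasa, had 187, 109.1 and 267.1 and then 1390, 2982 and 581 (2.72 ± 0.38, limma adjusted p = 0.000526). Mael, a piRNA factor, had 12.36, 24.7 and 15.79 and then 243.6, 505.4 and 117.7 (2.53 ± 0.34, limma adjusted p = 0.000393). In both genes the same order of arrays was seen at gd12, with sample 14 highest and sample 15 lowest, and the groups did not overlap. Tex14, which keeps the intercellular bridges of germ cells open, had 71.86, 83.01 and 116.4 and then 594.9, 1010 and 373.8 (2.42 ± 0.31, limma adjusted p = 0.000239). Slc25a31, the ADP/ATP carrier of germ cell mitochondria, had 156.6, 110.8 and 204 and then 786.2, 1902 and 418.6 (2.28 ± 0.34, limma adjusted p = 0.000877). For both the gd12 arrays lay above all gd11 arrays. Piwil1 and Piwil4 were low on all 6 arrays (at most 43.28) and were not called.

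**Figure D2:**
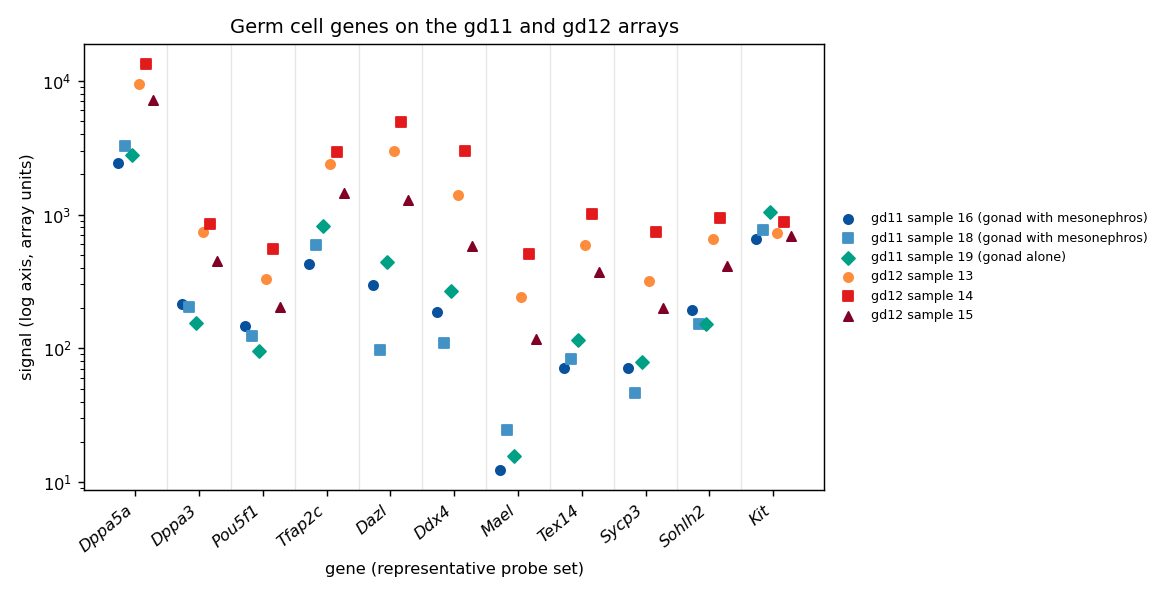
Signals (log axis, array units) of 11 germ cell genes on the 3 gd11 arrays and the 3 gd12 arrays, each point an array. For all but Kit the gd12 arrays lie above the gd11 arrays, with gd12 sample 14 highest and gd12 sample 15 lowest, and the Kit signals of both stages overlap between 651.7 and 1038.

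Several of these genes belong to a group whose promoters carry DNA methylation in somatic cells and lose it in primordial germ cells. Of 14 tested genes of such a list, 9 rose and 0 fell, with a median of 1.63, and the count was 8 to 11 without any 1 array. Since promoter methylation falls on CpG sites, the start-site windows of 4 called members are shown with theirs: 3 with large changes (Dazl, Ddx4 and Mael) and Sycp3, which carries the most CACGTG matches of them. Each runs from 250 bases before to 50 bases after the RefSeq start (build GRCm38.p6), 5′ to 3′ on the strand of the gene. Capitals mark 2 motifs on either strand, which do not overlap each other: TCCCGC, which reads as GCGGGA when it lies on the other strand and is the kind of site bound by E2F6, and the E-box CACGTG, the kind of site bound by MGA with MAX. Both are repressors of germline genes in somatic cells. Dazl lies on the minus strand at chr17:50293571-50293870, Ddx4 on the minus strand at chr13:112652261-112652560, Mael on the minus strand at chr1:166238695-166238994 and Sycp3 on the plus strand at chr10:88459337-88459636.
Dazl: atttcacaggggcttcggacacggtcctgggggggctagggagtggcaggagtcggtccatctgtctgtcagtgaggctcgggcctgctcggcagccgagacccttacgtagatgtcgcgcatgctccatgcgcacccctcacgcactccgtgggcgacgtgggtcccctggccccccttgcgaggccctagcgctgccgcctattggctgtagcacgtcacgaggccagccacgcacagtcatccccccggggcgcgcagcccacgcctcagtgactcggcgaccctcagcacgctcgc
Ddx4: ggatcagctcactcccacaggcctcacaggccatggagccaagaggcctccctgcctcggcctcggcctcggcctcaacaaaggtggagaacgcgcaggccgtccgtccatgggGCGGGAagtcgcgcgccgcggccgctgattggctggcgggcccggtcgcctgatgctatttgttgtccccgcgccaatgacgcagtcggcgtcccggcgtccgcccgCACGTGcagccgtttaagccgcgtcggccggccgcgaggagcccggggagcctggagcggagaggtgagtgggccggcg
Mael: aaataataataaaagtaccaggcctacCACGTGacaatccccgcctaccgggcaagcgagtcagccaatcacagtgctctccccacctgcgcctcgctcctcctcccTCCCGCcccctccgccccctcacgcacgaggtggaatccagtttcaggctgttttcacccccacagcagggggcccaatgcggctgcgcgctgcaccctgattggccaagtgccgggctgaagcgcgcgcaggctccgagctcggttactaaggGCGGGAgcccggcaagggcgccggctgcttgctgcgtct
Sycp3: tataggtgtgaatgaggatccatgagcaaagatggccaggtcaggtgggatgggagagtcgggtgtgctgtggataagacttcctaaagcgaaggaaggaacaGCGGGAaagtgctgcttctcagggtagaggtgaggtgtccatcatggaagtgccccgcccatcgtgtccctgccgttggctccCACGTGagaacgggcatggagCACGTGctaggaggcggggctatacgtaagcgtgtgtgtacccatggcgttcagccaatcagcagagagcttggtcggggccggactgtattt
The Dazl window holds 28 CpG sites and neither motif. The Ddx4 window holds 38 CpG sites with 1 match of each motif, the Mael window 24 with 2 matches of TCCCGC and 1 of CACGTG, and the Sycp3 window 15 with 1 and 2. Over 32851 windows of 27025 genes the median was 7 CpG sites, 20% held TCCCGC, 7.15% held CACGTG and 1.99% held both. Of the 9 genes of the list that rose, 8 have a window, and these held 14 to 38 CpG sites (median 23), TCCCGC in 4 and CACGTG in 5. Of all 14 tested genes of the list 13 have a window, with a median of 21 CpG sites, TCCCGC in 6 and CACGTG in 9. Members that did not rise thus carried the motifs as well. A match is a description of the letters, and these arrays did not measure methylation or binding. The genes for the writers and erasers of DNA methylation gave no call (0 of 8 tested by limma, 4 at an unadjusted p under 0.05), while 4.71% of all genes were called.

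Meiotic genes rose in part. Of 34 tested genes of meiotic prophase 11 rose and 0 fell, with a median of 0.70. Fewer were called without gd12 sample 14 (4), without gd12 sample 13 or gd11 sample 16 (6 each) or without gd11 sample 18 or 19 (7 each), and 2 when the 6 compared arrays were fitted by themselves. Sycp3, of the axis of meiotic chromosomes, had 71.45, 46.76 and 79.7 and then 319.2, 737.5 and 201.3, without overlap (2.05 ± 0.33, limma adjusted p = 0.00138). Tex15, a germ cell factor needed for recombination in meiosis, had 269.5, 207 and 240.9 and then 634, 970.9 and 718.2 (1.56 ± 0.28, limma adjusted p = 0.00324). Syce1, of the central element of the synaptonemal complex, had 34.89, 7.98 and 7.55 and then 85.66, 192.1 and 64.81 (1.55 ± 0.27, limma adjusted p = 0.00303).

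Smc1b, the meiotic cohesin subunit, had 7.04, 7.48 and 7.09 and then 140.4, 237.3 and 8.49. It was far above gd11 on samples 13 and 14 and near it on sample 15 (1.68 ± 0.43, limma adjusted p = 0.0346). Without gd12 sample 14 its change was 1.11, and its call was lost without any 1 array other than gd12 sample 15 (limma adjusted p 0.0774 to 0.211). Stra8, which licenses entry into meiosis in response to retinoic acid, had 57.42, 26.42 and 11.53 and then 10.84, 135.3 and 57.59, and the stages overlapped (limma adjusted p = 0.621). The recombinase gene Dmc1 had 68.72, 32.64 and 28.52 and then 105.4, 106.8 and 43.82 (limma adjusted p = 0.188). Sycp1, of the transverse filaments of the synaptonemal complex, was at most 42.6 on all 6 arrays.

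Of 17 tested oocyte genes 4 rose and 0 fell (median 0.33), and 1 rose without gd12 sample 14. Sohlh2, a transcription factor of early germ cells, had 193.8, 152.6 and 153.1 and then 660.9, 934.2 and 410.8, with gd12 sample 14 highest and no overlap (1.76 ± 0.27, limma adjusted p = 0.00112). The other 3 were the transcription factor subunit Taf4b (1.20 ± 0.24, limma adjusted p = 0.00758), the maternal effect gene Ooep (1.03 ± 0.24, limma adjusted p = 0.0198) and Nlrp14 (1.32 ± 0.34, limma adjusted p = 0.0335). The call of Taf4b was lost without gd12 sample 14 (limma adjusted p = 0.0615). Those of Ooep and Nlrp14 were each lost without 4 of the arrays, with limma adjusted p values up to 0.0789 and 0.174.

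Among the gd12 arrays the germ cell genes kept a common order. Of 41 called genes in the germ cell lists, 34 were highest on sample 14 (82.9%) and 37 were lowest on sample 15 (90.2%), and 40 did not overlap between the stages. Of all 415 genes that rose, 77.3% were highest on sample 14, 39.5% were lowest on sample 15 and 401 did not overlap. Over all genes tested the shares were 37.9% and 30.3%, and 3093 of 12592 did not overlap. The lack of overlap is thus shared by nearly all genes that rose. The summed signal of 24 germ cell identity genes was 10829, 18269 and 6325 on samples 13, 14 and 15, so the gd12 arrays differed among themselves by more than the gd11 arrays did (2712, 2308 and 2969). Of 15 called genes of the gonadal transcription factor and pre-granulosa lists, 13 were highest on sample 14 (86.7%) and 14 were lowest on sample 13 (93.3%). Of all genes that rose 53.5% were lowest on sample 13, and of all genes tested 34.1%.

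Transcription factors of the gonadal primordium rose in part: 6 of 16 tested rose and 0 fell, with a median of 0.64. Of these 6 calls 1 was made without gd12 sample 14, 2 without gd11 sample 16, 3 without gd12 sample 15 and 0 from the 6 compared arrays by themselves (all by limma). Wt1, the zinc finger factor needed to form the gonad, had 934.3, 1233 and 1596 and then 2137, 2477 and 2928. The stages did not overlap, and sample 19 was the highest of gd11 (1.01 ± 0.19, limma adjusted p = 0.00523). Against sample 19 the change of Wt1 was 0.63 (limma adjusted p = 0.375) and against samples 16 and 18 it was 1.19. Lhx9, a LIM homeobox factor of the genital ridge, had 3109, 3203 and 3323 and then 4543, 8550 and 7259, and its gd11 signals hardly differed between tissues (1.02 ± 0.20, limma adjusted p = 0.00659, and 0.0584 without gd12 sample 14).

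Gata4, the GATA factor that starts thickening of the genital ridge, had 148.3, 254.2 and 237.8 and then 292.2, 544.2 and 400 (0.85 ± 0.20, limma adjusted p = 0.0214). That call ended without gd11 sample 16, gd12 sample 14 or gd12 sample 15 (limma adjusted p 0.0563 to 0.153), and the same held for its cofactor Zfpm2 (0.75 ± 0.18, limma adjusted p = 0.0244, and 0.0725 to 0.134 without those arrays). Dmrt1, a factor of germ cells and of the testis, had 171, 148.1 and 242.9 and then 407.2, 874.5 and 444.2 (1.42 ± 0.34, limma adjusted p = 0.0241). Dmrt1 was not called without gd11 sample 16 or 18 or gd12 sample 14 (limma adjusted p 0.0735 to 0.167). Nr5a1, the nuclear receptor of steroidogenic and supporting cells, had 277.5, 453.4 and 362 and then 429.1, 943.8 and 360.1, and only gd12 sample 14 stood above gd11 (limma adjusted p = 0.283). Emx2, a homeobox factor of the urogenital ridge, had 1739, 2373 and 1867 and then 2392, 4719 and 4280, without overlap, and missed the threshold (0.87 ± 0.25, limma adjusted p = 0.0553).

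Genes of the pre-granulosa lineage rose as well: 9 of 23 tested rose and 0 fell, with a median of 0.81. Without gd12 sample 14, 3 rose, and fitting the 6 compared arrays by themselves gave 3. Fst, the activin antagonist follistatin, had 760.6, 616.1 and 755.6 and then 1776, 6691 and 2431 (2.07 ± 0.31, limma adjusted p = 0.000872). Amhr2, the receptor of anti-Müllerian hormone, had 1683, 2565 and 1959 and then 3818, 9428 and 7198 (1.63 ± 0.25, limma adjusted p = 0.000893). In both the gd12 arrays lay above all gd11 arrays. At gd12 sample 14 was far above the others for Fst, and sample 13 was below the others for Amhr2 (2.00 without sample 13 and 1.35 without sample 14). Amhr2 was called in all 19 settings tried.

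Inhbb, the activin and inhibin beta B subunit, had 331.2, 329.1 and 327.7 at gd11, almost equal on the 3 arrays, and 617.9, 1278 and 926.6 at gd12 (1.37 ± 0.21, limma adjusted p = 0.000893). Bmp2, a ligand of the XX supporting cells, had 545.7, 548.2 and 792.5 and then 1188, 3941 and 2486 (1.82 ± 0.38, limma adjusted p = 0.0093, and 0.0759 without gd12 sample 14). Kitl, the ligand that germ cells need to migrate and survive, had 4778, 4955 and 5747 and then 6992, 14000 and 9301 (0.91 ± 0.19, limma adjusted p = 0.00864, and 0.0601 without gd12 sample 14). None of these 3 genes overlapped between the stages.

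Foxl2, the forkhead factor of granulosa cells, had 175.5, 152.4 and 130.2 and then 223.4, 589.2 and 302 (1.03 ± 0.23, limma adjusted p = 0.014). Without gd12 sample 14 its change was 0.67 (limma adjusted p = 0.0726), and its call was also lost without gd11 sample 19 (limma adjusted p = 0.054). Irx3, an Iroquois factor of pre-granulosa cells, had 1002, 324.8 and 323.2 and then 1021, 5317 and 1405. Gd11 sample 16 was close to gd12 sample 13, while samples 18 and 19 were far below (1.99 ± 0.43, limma adjusted p = 0.0128). Without gd12 sample 14 its change was 1.28, and its call was lost without that array or gd11 sample 18 or 19 (limma adjusted p 0.0567 to 0.0615). Wnt4, which drives ovarian fate, had 1174, 1284 and 1444 and then 1563, 2068 and 2373, without overlap, and was not called (0.59 ± 0.19, limma adjusted p = 0.0942).

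**Figure D3:**
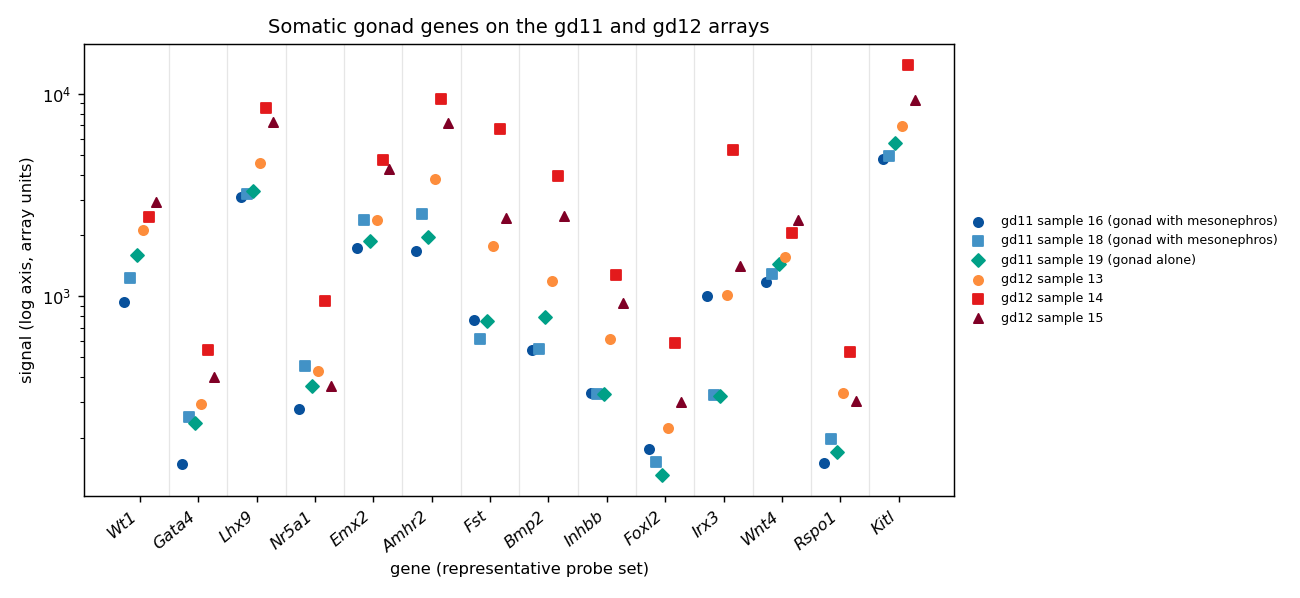
Signals (log axis, array units) of 14 somatic gonad genes on the 3 gd11 arrays and the 3 gd12 arrays, each point an array. For Fst, Amhr2, Inhbb and Lhx9 all gd12 arrays lie above all gd11 arrays, Nr5a1 overlaps between the stages, and the gd12 array of sample 14 is the highest for most genes shown.

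Of 13 tested genes of the testis pathway 1 rose and 1 fell. Sox9, the factor that directs Sertoli cell fate and is also expressed in cartilage and duct epithelium, had 1224, 452.2 and 690.6 and then 160.5, 240.6 and 230.7, with all gd12 arrays below gd11 (-1.67 ± 0.36, limma adjusted p = 0.0128, and 0.0732 without gd11 sample 16). Vnn1, a pantetheinase of early testis cords, had 605.3, 792.8 and 595.5 and then 1010, 1535 and 1065 (0.81 ± 0.19, limma adjusted p = 0.0196). Its call was lost without gd11 sample 16 or 19 or gd12 sample 14 (limma adjusted p 0.0693 to 0.14). Of 13 tested genes of coelomic and surface epithelium 3 rose (Wt1, Aldh1a1 and Muc16) and 0 fell, with a median of 0.54, and 1 rose without gd12 sample 14. Muc16 was not called without gd11 sample 16 or 18 or gd12 sample 14 or 15 (limma adjusted p 0.0554 to 0.125).

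Signals between cells of the ridge changed in single members rather than as lists. Of 27 tested Wnt and R-spondin genes 4 rose and 0 fell, with a median of 0.07 that turned to -0.03 under median scaling, and the count was 2 without gd12 sample 14. Sp5, a direct target of Wnt signalling, had 14.94, 40.8 and 18.69 and then 130.2, 266.4 and 137.4, and it was also called against sample 19 alone (1.87 ± 0.29, limma adjusted p = 0.001, and 0.0489 against sample 19). Wnt5a, a ligand that guides primordial germ cells, had 801.3, 898.4 and 960.5 and then 1997, 1927 and 2295, with little spread within either stage (1.20 ± 0.23, limma adjusted p = 0.00535). Wnt6 had 249.2, 298.9 and 283 and then 544.7, 1114 and 766.8 (1.39 ± 0.27, limma adjusted p = 0.00586, and 0.0511 without gd12 sample 14). Rspo1, which raises Wnt signalling in the XX gonad, had 150, 197 and 169.5 and then 330.9, 528.6 and 302.2, without overlap (1.01 ± 0.25, limma adjusted p = 0.0254). Rspo1 was not called without gd11 sample 16 or 19 or gd12 sample 14 (limma adjusted p 0.0635 to 0.168).

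Of 20 tested BMP and activin genes 3 rose (Fst, Bmp2 and Inhbb) and 1 fell, with a median of -0.01. Bmp4, the ligand that induces and sustains primordial germ cells, had 482.4, 981 and 1191 and then 393.2, 355.2 and 415.7 (-1.04 ± 0.28, limma adjusted p = 0.0432), and its call was lost without any 1 array other than gd11 sample 16 (limma adjusted p 0.0823 to 0.17). Its change from sample 19, the highest of gd11, was -1.55. Of 12 tested retinoic acid genes 1 rose and 2 fell. The retinoic acid binding protein Crabp1 had 1691, 837.2 and 1256 and then 611.3, 192.5 and 437.7 (-1.61 ± 0.33, limma adjusted p = 0.00925), and was not called without gd12 sample 14 or gd11 sample 16 (limma adjusted p = 0.0677 and 0.0519). The related Crabp2 fell by 1.57 on the log2 scale (limma adjusted p = 0.0236), and its call was lost without those arrays or gd11 sample 19 (limma adjusted p 0.0689 to 0.147). Aldh1a1, a retinaldehyde dehydrogenase, rose (0.92 ± 0.22, limma adjusted p = 0.0196). Its change was 0.56 without gd12 sample 14, and its call was lost without that array or gd11 sample 19 (limma adjusted p = 0.0908 and 0.0814).

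Genes of germ cell migration and settling showed no common direction: 3 of 18 tested rose (Wnt5a, Kitl and Itga6) and 1 fell, with a median of 0.12 (0 under median scaling). Without gd12 sample 14, 1 rose and 0 fell, and without gd12 sample 15, 2 rose and 0 fell. Kit, the receptor of Kitl on germ cells, had 651.7, 771.3 and 1038 and then 731.1, 886.2 and 685.7, and the stages overlapped while its ligand rose (limma adjusted p = 0.89 for Kit). Cxcl12, the chemokine that attracts primordial germ cells, had 3029, 5992 and 7780 and then 3313, 2054 and 2293. Its receptor gene Cxcr4 had 642.2, 239.4 and 126.7 and then 915.2, 440.1 and 705.6. Neither was called (limma adjusted p = 0.267 and 0.223), and for both sample 16 lay among the gd12 arrays. Itga6, an integrin subunit of laminin receptors, had 1675, 2059 and 2187 and then 2529, 5375 and 3561 (0.88 ± 0.21, limma adjusted p = 0.0211). Its call was lost without gd11 sample 16, gd12 sample 14 or gd12 sample 15 (limma adjusted p 0.0506 to 0.143).

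Of the 178 falls 157 were of genes in no list, and of the 415 rises 345. Arg1, the arginase of the urea cycle, had 430.1, 393 and 687.4 and then 31.25, 8.37 and 52.2 (-3.14 ± 0.41, limma adjusted p = 0.000369), and it was also called against sample 19 alone (-3.61, limma adjusted p = 0.0129). Col9a1, a collagen of cartilage, had 1456, 1182 and 2722 and then 374.1, 276.3 and 265.7 (-2.36 ± 0.32, limma adjusted p = 0.000468, and 0.00399 against sample 19). Hoxa7, a homeobox gene of the trunk, had 239.9, 212.2 and 208.5 and then 41.6, 10.56 and 16.61 (-2.26 ± 0.30, limma adjusted p = 0.000369, and 0.0424 against sample 19). The array labelled gonad alone was the highest of gd11 for Arg1 and Col9a1, and for Hoxa7 it was close to the others.

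Col8a1, a short-chain collagen, had 276.2, 1385 and 490 and then 61.86, 49.43 and 50.74, so gd11 varied widely and gd12 hardly at all (-2.85 ± 0.44, limma adjusted p = 0.00117). Pcdh8, a protocadherin of paraxial mesoderm and brain, had 3741, 1579 and 1773 and then 564.9, 172.2 and 469.1 (-2.50 ± 0.41, limma adjusted p = 0.00155). Megf10, a phagocytic receptor of muscle precursors and glia, had 1442, 501.8 and 700.7 and then 196.8, 52.47 and 168.5 (-2.41 ± 0.40, limma adjusted p = 0.00181). In Pcdh8 and Megf10 sample 16 was the highest array, yet samples 18 and 19 also lay above every gd12 array.

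Among the 23 tested collagens 4 rose and 2 fell. The 3 chains of collagen VI, a microfibril of the interstitium, all rose: Col6a1 (1.35 ± 0.21), Col6a2 (1.71 ± 0.25) and Col6a3 (1.49 ± 0.26), with limma adjusted p values of 0.0013, 0.00083 and 0.00303. Col6a2 had 410.9, 827.2 and 813.7 and then 2347, 2306 and 2006, so the gd12 arrays were close to each other and far above gd11. Col6a3 had 507.6, 629.7 and 626.4 and then 1743, 1680 and 1665. Col4a5, a chain of basement membranes, rose (0.78 ± 0.15, limma adjusted p = 0.00496). Col2a1, the main collagen of cartilage, had 287.1, 137.3 and 224.4 and then 24.14, 21.25 and 44.27 (-1.99 ± 0.32, limma adjusted p = 0.00131).

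Of 12 tested Hox genes of paralogue groups 1 to 5, 0 rose and 2 fell (1.41% of all genes fell), with 11 of 12 changes below 0 and a median of -0.85. Hoxa5 had 1998, 2361 and 1829 and then 1193, 1096 and 1033, without overlap (-0.87 ± 0.17, limma adjusted p = 0.00606). Hoxb5 had 993.7, 818.1 and 507.6 and then 280, 80.59 and 232.8 (-1.89 ± 0.52, limma adjusted p = 0.0452), and its call was lost without any 1 array except gd12 sample 13 (limma adjusted p 0.0521 to 0.24). Of 5 tested genes of groups 6 to 8 Hoxa7 fell, and of 8 tested genes of groups 9 to 13 none was called by limma (3 at an unadjusted p under 0.05).

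All 18 tested genes of cholesterol synthesis had changes below 0, with a median of -0.43, and 4 of them fell. Only 1 fell without gd11 sample 16 or without gd12 sample 14, 2 fell without gd12 sample 13, and 1 fell when the 6 compared arrays were fitted by themselves. Hsd17b7, which reduces a 3-keto group of sterol intermediates, had 3640, 2326 and 2787 and then 1538, 1753 and 1467, without overlap (-0.85 ± 0.17, limma adjusted p = 0.0078). Hmgcs1, the HMG-CoA synthase at the head of the pathway, had 22690, 17330 and 19810 and then 13370, 15960 and 14660 (-0.44 ± 0.12, limma adjusted p = 0.0374). Its call was lost without any 1 array except gd11 sample 18 (limma adjusted p 0.0663 to 0.174). Further tested probe sets of Hmgcs1 (limma adjusted p 0.247 to 0.394) and of Hsd17b7 (0.161 and 0.277) also had changes below 0 and were not called. The summed signal of the list was 54980 on sample 16 and 39362 and 42108 on samples 18 and 19, against 31191 to 33958 at gd12. Sample 16 also had the highest nervous tissue sum, and the part of that tissue in this list was not tested.

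Nervous tissue genes lay lower at gd12 with a large spread. Of 20 tested, 19 changes were below 0 (median -1.40), 2 genes fell and 0 rose. Isl1, a LIM homeobox factor of neurons and of splanchnic mesenchyme, had 2524, 1992 and 1392 and then 863.6, 169.2 and 84.59, so all gd11 arrays lay above all gd12 arrays (-2.82 ± 0.55, limma adjusted p = 0.00616). Chl1, a neural adhesion molecule, had 1064, 183.5 and 325.5 and then 50.49, 58.12 and 44.95 (-2.42 ± 0.42, limma adjusted p = 0.00303). Stmn2 was not called, and its gd12 signals of 744, 120 and 159.6 overlapped with samples 18 and 19 (limma adjusted p = 0.386). Gd12 sample 13 carried more of several of these genes than the other gd12 arrays, such as Th, the tyrosine hydroxylase of catecholamine cells, at 474.5 against 43.51 and 65.96. Of the list 4 genes fell without gd11 sample 18, 5 without gd12 sample 13 and 0 (by limma) from the 6 compared arrays by themselves.

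Of 16 tested genes of the mesonephric duct and tubules 0 rose and 1 fell, with a median of -0.09. Ret, the receptor of GDNF on the nephric duct and on enteric neurons, had 399.6, 411.4 and 445.9 and then 331.9, 51.94 and 60.5 (-1.68 ± 0.42, limma adjusted p = 0.0292). It was equally high on the arrays with and without mesonephros by label, and its call was lost without any 1 array except gd12 sample 13 (limma adjusted p 0.0704 to 0.181). Of 10 tested genes of nephrogenic and renal stromal mesenchyme 1 fell, Foxd1, the stromal forkhead factor, with 1569, 1419 and 2877 and then 1153, 422.4 and 962. Its change was -1.22 ± 0.33 (limma adjusted p = 0.0438), and -0.80 without gd12 sample 14. Foxd1 was not called without any 1 array except gd12 sample 13 (limma adjusted p 0.0511 to 0.261), and 2 genes of the list fell without gd12 sample 13 or gd11 sample 16.

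Of 11 tested red blood cell genes the embryonic globins Hbb-bh1 and Hba-x fell, with 17520, 16190 and 13260 and then 9626, 3398 and 6374 for Hbb-bh1 (-1.39 ± 0.36, limma adjusted p = 0.0346). Hbb-y, another embryonic globin, had 32520, 31050 and 31770 and then 35420, 36690 and 36200 (limma adjusted p = 0.767), and the lineage factor genes Gata1 and Klf1 were not called. Hba-x was not called without gd11 sample 16 or 18 or gd12 sample 14 or 15 (limma adjusted p 0.0815 to 0.155). The call of Hbb-bh1 was lost without any 1 array except gd12 sample 13 (limma adjusted p 0.0538 to 0.214). No endothelial (0 of 15), macrophage (0 of 11), adrenal cortex (0 of 5), neural crest (0 of 8), gut and liver (0 of 7) or mitotic gene (0 of 20) was called by limma. At an unadjusted p under 0.05 these lists had 0, 0, 0, 5, 2 and 6 genes. Over all genes tested 4.71% were called, so lists of this size can lack a call without differing from other genes. Of the 20 mitotic genes 16 had changes below 0 and 4 above, with a median of -0.23. Of 5 tested muscle and somite genes the slow troponin Tnnt1 rose (1.64 ± 0.24, limma adjusted p = 0.000789) and the cardiac actin Actc1 fell (-2.02 ± 0.50, limma adjusted p = 0.0265). Actc1 was not called without gd11 sample 18 or 19 or gd12 sample 14 (limma adjusted p 0.0593 to 0.161). Of 18 genes of low oxygen and glycolysis Adm and Ndrg1 rose and 0 fell, Adm not without gd11 sample 16 or 18 or gd12 sample 14 (limma adjusted p 0.0659 to 0.14). Of 9 immediate early genes 0 were called by limma (2 at an unadjusted p under 0.05).

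To part the changes by tissue, a called gene was said to hold against sample 19 when all 3 gd12 arrays lay on the called side of it and their mean differed from it by at least 0.5 of the change between the stages. By that rule 579 of the 593 called genes held (97.6%) and 14 did not. The same rule gave 578 genes against sample 16 and 583 against sample 18, and 554 genes held against all 3 arrays. The count for sample 19 thus lay between those for the 2 arrays labelled gonad with mesonephros. The 407 rises that held had a median change of 1.08 between the stages and of 1.07 against sample 19. The 172 falls that held had medians of -0.79 and -0.73. Every called gene of the germ cell, gonadal transcription factor and pre-granulosa lists was among those that held.

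The 14 that did not hold were 8 rises (Adgrl3, Dmrta1, Lypd6, Myh11, Nfib, Prr23a3, Slc26a7 and Tnip2) and 6 falls (Dll1, Gm16551, Hba-x, Hipk2, Sncg and Vtn). Their median changes were 1.16 and -1.60 between the stages, 1.43 and -2.12 against samples 16 and 18, and 0.44 and -0.52 against sample 19. Sncg, the neuronal gamma-synuclein, had 1257, 146.8 and 129.5 and then 67.51, 61.16 and 40.74, so its size came from sample 16 (-1.94 ± 0.53, limma adjusted p = 0.046, and -0.96 without that array). It was not called without gd11 sample 16 or any 1 of the gd12 arrays (limma adjusted p 0.0797 to 0.151). Vtn, the plasma protein vitronectin, had 412.6, 221.3 and 53.06 and then 31.88, 10.19 and 48.83, with sample 19 just above gd12 sample 15 (-1.84 ± 0.47, limma adjusted p = 0.0341). Myh11, the smooth muscle myosin, had 31.43, 20.74 and 84.06 and then 109.8, 184.6 and 108.6 (1.17 ± 0.32, limma adjusted p = 0.0467). Slc26a7, an anion exchanger, had 44.7, 74.9 and 154.5 and then 269.3, 327 and 160.9, with sample 19 just below gd12 sample 15 (1.26 ± 0.33, limma adjusted p = 0.0351). The calls of Vtn, Myh11 and Slc26a7 were each lost without at least 4 of the arrays, among them gd11 samples 16 and 18 (limma adjusted p 0.0672 to 0.229). Of the others, Dmrta1, Lypd6, Prr23a3, Tnip2, Dll1 and Hipk2 each lost their call without 4 or 5 of the arrays, gd11 sample 16 and gd12 sample 14 among them (limma adjusted p 0.0559 to 0.234). Without gd11 sample 16 the change of Prr23a3 was 0.70 against 1.16, and that of Dll1 was -0.67 against -1.36. A further probe set of Hipk2 was at 0.09 ± 0.21 and was not called (limma adjusted p = 0.878), against -0.66 for the probe set that represents the gene.

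Because sample 19 is itself 1 of the 3 gd11 arrays behind each call, a stricter reading was added after the data were seen, with calls made against samples 16 and 18 only and sample 19 left for the check. Sample 19 shares its dam with sample 18, so the check is not independent of the calls. With samples 18 and 19 averaged, 687 probe sets were called between the stages in place of 1089, and 364 genes held against gonad alone in place of 579. In a fit with gd11 parted by tissue, 451 genes were called against gonad with mesonephros (3.58%), 316 of them higher (2.51%) and 135 lower (1.07%). Of these, 360 held against sample 19 (79.8%), 272 of the rises (86.1%) and 88 of the falls (65.2%), and 6 genes lay on the opposite side. Among the 360 genes that held, the median share of the change that was kept was 0.87. The rule sets a minimum for this share and leaves out the genes that did not hold, so a high value follows in part from it. The same procedure with sample 18 left out called 426 genes (3.38%), of which 78.6% held against it, and with sample 16 left out 374 genes (2.97%), of which 77.8% held. The share of rises that held was 86.1% for sample 19, 85.3% for sample 18 and 85.3% for sample 16, and the share of falls was 65.2%, 61.7% and 57.4%. Differences between these shares were not tested.

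By this stricter reading all called genes of the pluripotency list (11), the germ cell identity list (11), the methylated germline list (8) and the meiotic list (7) held against sample 19. The methylated list shares genes with the identity list, such as Dazl, and with the meiotic list, such as Sycp3. These counts therefore cannot be added. Of the called oocyte genes Sohlh1, a transcription factor of early germ cells, did not, with 20.61, 4.64 and 42.74 and then 69.85, 73.56 and 72.03. Of 6 gonadal transcription factor genes called against samples 16 and 18, 5 held and Gata6 did not. Of 7 such pre-granulosa genes 6 held and Inhba did not. Other list members that did not hold were Muc16, Col12a1 and Aldh1a3 among the rises and Shh and Hba-x among the falls. Inhba, the activin beta A subunit, had 13.51, 97.1 and 204.1 and then 113.9, 351.3 and 193, a change of 1.62 against samples 16 and 18 and of -0.02 against sample 19. Col12a1, a collagen of dense connective tissue, had 287.1, 404 and 1144 and then 588.6, 1282 and 825.2, with changes of 1.25 and -0.41. In all 44 rises that did not hold, sample 19 was the highest of gd11, and in 34 of them sample 16 was the lowest. The rule picks genes in which sample 19 lies toward gd12, so this order follows largely from it. Among the 272 rises that held, sample 19 was the highest in 130 and sample 16 the lowest in 146.

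In the 47 falls that did not hold, sample 16 was the highest gd11 array in 40 and at least 2-fold above both others in 22. Sample 19 was the lowest gd11 array in 44 of them, which again follows largely from the rule. Among the 88 falls that held, sample 16 was the highest in 54 and at least 2-fold above both others in 12. The median change of the 47 falls was -1.41 against samples 16 and 18 and -0.39 against sample 19. No member of the nervous tissue list was among these 47 falls, and the 2 members of it that were called against samples 16 and 18 both held. The following 5 genes were singled out after their values were seen. Neurod1, a proneural factor, had 1611, 137.1 and 45.66 and then 4.31, 22.7 and 47.09. Tagln3, a neuronal actin-binding protein, had 2452, 287.5 and 193.9 and then 223.3, 50.83 and 61.99. Dner, a neuronal Notch ligand, had 3343, 223.1 and 324 and then 183.6, 123 and 138.4. In these 3 genes sample 16 stood far above the other 5 arrays. Shh, the hedgehog ligand, had 1792, 355.9 and 248.6 and then 298.8, 147.9 and 235.5. Ptf1a, a factor of pancreas and spinal cord, had 255.7, 191.6 and 42.12 and then 49.52, 21.07 and 23.41, high on both arrays labelled gonad with mesonephros and low on sample 19 and at gd12. Sample 16 also had the highest nervous tissue sum, and the share of that tissue in these falls was not tested.

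**Figure D4:**
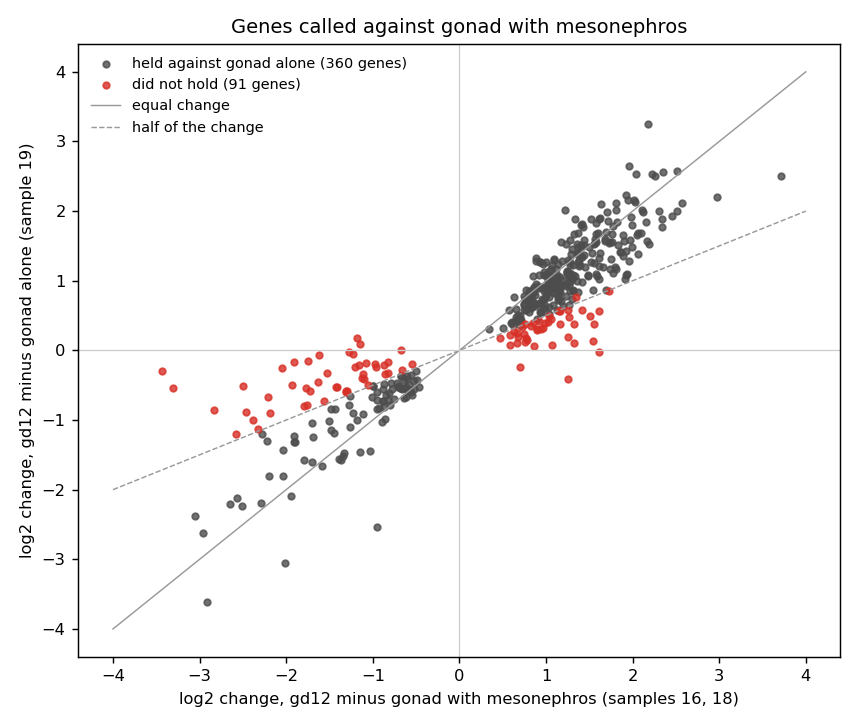
Log2 change of the 451 genes called against gonad with mesonephros (x axis, gd12 minus samples 16 and 18) beside their change from gonad alone (y axis, gd12 minus sample 19), each point a gene. The 360 genes that held lie near the line of equal change, and the 91 that did not, in red, lie nearer to 0 on the y axis. Both axes share the gd12 arrays.

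When gd12 was tested against sample 19 alone in that fit, with the lone array assumed to vary like the other groups, 46 genes were called (0.365%), 38 higher (0.302%) and 8 lower (0.0635%). The rises included the germ cell genes Dazl, Mael, Tex14, Dppa5a and Ifitm1, and Rbm44, an RNA-binding protein of germ cell bridges, with 13.16, 21.7 and 7.98 and then 192, 389.2 and 89.84 (2.53 against sample 19, limma adjusted p = 0.0333). Gabra4, a GABA receptor subunit, had 769.2, 834.3 and 657.6 and then 2007, 3329 and 2394, with a difference of 1.89 (limma adjusted p = 0.00399). The falls were Arg1, Col9a1, Hoxa7, Prdm6, Foxc1, Limch1, Iigp1 and Pappa. Prdm6, a repressor of smooth muscle precursors, had 200.5, 404.7 and 921.6 and then 137, 129.2 and 133.9, a difference of -2.54 (limma adjusted p = 0.00176) that was set by a high sample 19. Iigp1, an interferon-induced GTPase, had 151.6, 478.1 and 1165 and then 321.5, 208.7 and 249.9, so that sample 16 lay below gd12 and sample 19 above it. Gabra4, Prdm6 and Iigp1 were picked after their values were seen.

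Between gonad with mesonephros and gonad alone no gene was called (0%, by limma, with 513 genes at an unadjusted p under 0.05), with 2 arrays against 1 and a dam shared across the labels. Without gd11 sample 18, which leaves 1 array for each label, 184 probe sets were called in that comparison. Without gd11 sample 16, 2 were.

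**Figure D5:**
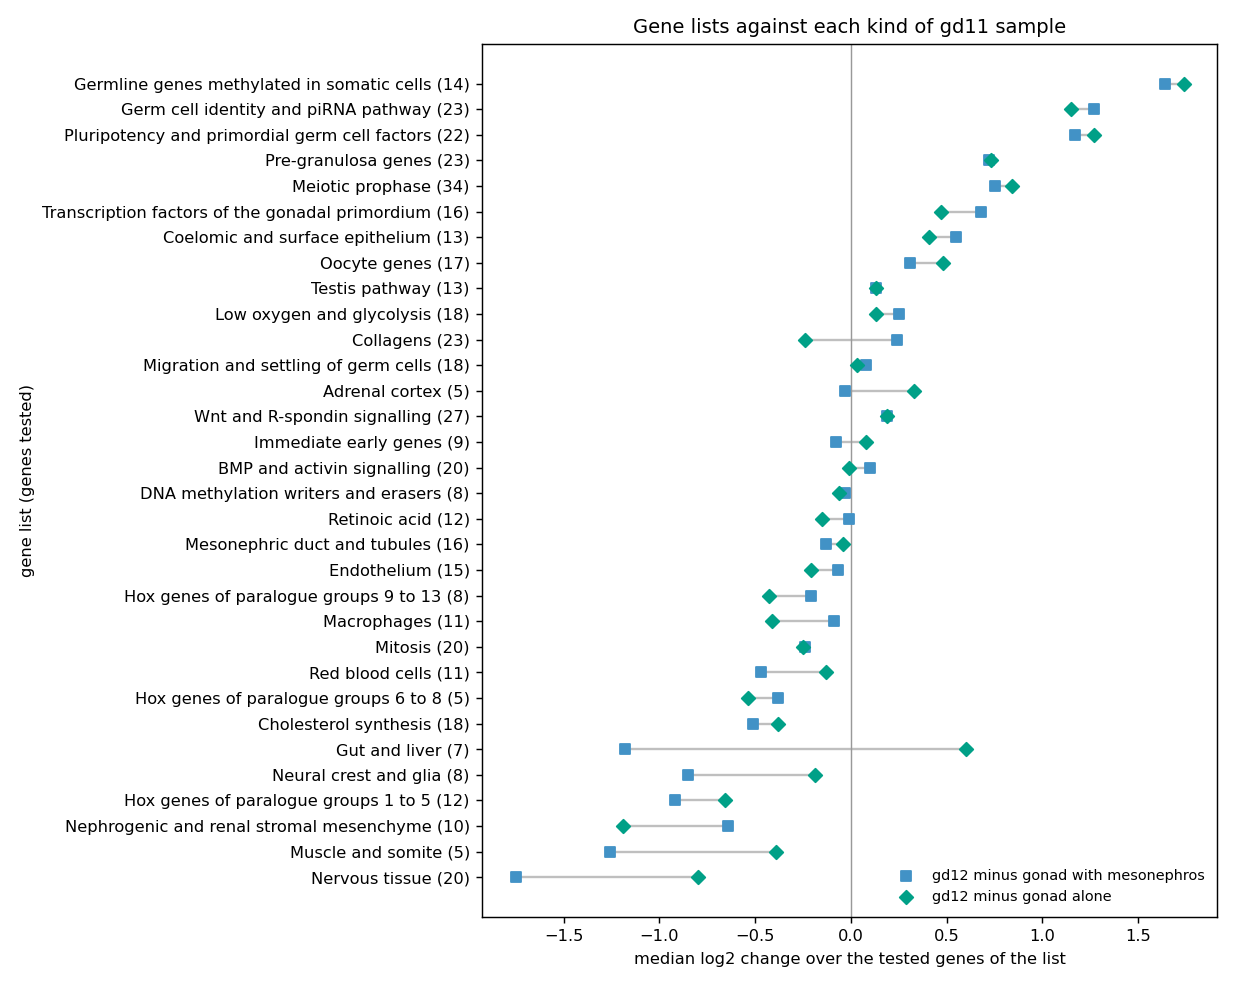
Median log2 change of the tested genes of each list at gd12 against gonad with mesonephros (squares, samples 16 and 18) and against gonad alone (diamonds, sample 19), with the number of genes tested in brackets. The germ cell lists lie near each other on the right for both kinds of gd11 sample (1.17 and 1.27 for pluripotency), while nervous tissue (-1.75 and -0.80) and gut and liver (-1.18 and 0.60) lie apart. Both medians share the gd12 arrays.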

How the data were processed

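The series matrix deposited by the authors holds 1 signal intensity per probe set and array, on a linear scale, made with GCOS per the submitters' processing notes (its version and settings: not given in the sources used here). The trimmed mean of each array was found to be 500. Intensities were used as deposited and taken as log2(signal + 31), 31 being their 25th percentile. limma 3.58.1 (R 4.3.3) fitted all 18 ovary arrays with 1 term per stage (12 residual degrees of freedom) and a mean-variance trend, two-sided, and again with gd11 parted by tissue (11 residual degrees of freedom). Of 45101 probe sets, 64 controls were left out, and 34958 have 1 gene in the platform annotation, 932 several and 9211 none. A gene with several tested probe sets is represented by the one with the highest mean. Named genes are the 10 largest rises and 10 largest falls that held and did not overlap, the 6 largest of each that did not hold, up to 5 called members of each list in each direction, and a fixed panel. The remaining part of the rule, genes called between the gd11 tissues, named none. Other list members and genes are given where a count turns on them. Members and lists were chosen with earlier results of these data known. The number of arrays limits the precision. The fitting was tested on simulated data. Alternatives varied the offset, filter, scaling, arrays fitted, weights, trend, probe set rule, an added 2-fold threshold and each array in turn. Promoter windows come from RefSeq (GRCm38.p6).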

Additional observations from a re-analysis of the deposited data

Results flagged for a closer look

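For 10 genes of the lists all gd12 arrays lay to one side of the array labelled gonad alone and to the opposite side of both arrays labelled gonad with mesonephros. The differences between these changes were not tested. Such genes were 10 of 462 list and named genes (2.16%) and 316 of all 12592 genes tested (2.51%).

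Higher than gonad with mesonephros and lower than gonad alone were the collagen genes Col5a1 (-0.02 against gonad alone and 0.43 against gonad with mesonephros, log2 changes here and below) and Col4a2 (-0.16 and 0.33). The integrin gene Itgav (-0.23 and 0.48), the posterior homeobox gene Hoxa11 (-0.41 and 0.81), the immediate early gene Egr1 (-0.26 and 0.46) and the oxidoreductase gene Ero1a (-0.06 and 0.24) went the same way.

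Higher than gonad alone and lower than gonad with mesonephros were Mvk, the mevalonate kinase of cholesterol synthesis (0.59 and -0.68), and Foxa2, a forkhead factor of endoderm and floor plate (0.45 and -1.18). The mitotic gene Birc5 (0.23 and -0.27) and the mesothelial gene Msln (0.41 and -0.53) did so too.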

How the results depend on the processing

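The 1089 probe sets called between the stages became 438 when only the compared arrays were fitted, 687 with samples 18 and 19 averaged and 545 with an added 2-fold threshold, and 339 to 893 without any 1 array. The 579 genes that held against gonad alone became 240, 364 and 318 in those 3 settings, 39 when the call in the fit parted by tissue was required, 281 when a change of at least 1 was required, and 191 to 521 without any 1 array. The 82 probe sets called against gonad alone became 132 (offset of 8), 51 (offset at the median), 42 (quantile normalization), 41 (median scaling), 28 (no filter), 0 (compared arrays, by limma), 23 (no trend) and 164 (array weights), and 33 to 174 without any 1 array. The 803 called against gonad with mesonephros became 24 from the compared arrays and 509 with the 2-fold threshold, and 139 to 1070 without any 1 array. Between the gd11 tissues 0 were called (938 at an unadjusted p under 0.05, by limma), 1 with an offset of 8, 1 with an offset at the median, and 0 to 184 without any 1 array. Of the 89 named called genes 13 were called with gonad alone as the only gd11 array, 41 without gd12 sample 14 and 53 without gd11 sample 16, and none changed direction in any setting run. The lone array in a group is assumed to vary like the others. No paired analysis was possible because the sample numbers are not shared between the stages. The dam as a random block could not be fitted, since a single pair of arrays shares one.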

Other observations

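The called genes were also counted by chromosome, a grouping chosen after the values were seen. Of 446 X-linked genes tested 42 rose (9.42%) and 7 fell (1.57%), against 371 (3.07%) and 171 (1.41%) of 12102 autosomal genes, and the difference between these shares was not tested. Without any 1 array 4.93% to 9.19% of X-linked and 1.11% to 2.89% of autosomal genes rose. After median scaling the shares were 7.17% and 2.12%, and after quantile normalization 8.52% and 2.48%. The median change was 0.086 on the X chromosome and 0.001 on the autosomes, and -0.03 and -0.11 after median scaling.

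The X-linked rises include reproductive homeobox genes and Mageb16, of the Mage family that is known from germ cells and tumours. Rhox5 had signals of 1092, 1259 and 1344 at gd11 and of 4397, 4305 and 3291 at gd12 (1.67, limma adjusted p = 0.000428). Rhox9 had 502.2, 572.8 and 717.7 and then 3199, 2262 and 1740 (1.92, limma adjusted p = 0.000411). Both were highest on gd12 sample 13 and lowest on gd12 sample 15, an order unlike that of Dazl and Ddx4. Mageb16 had 409.8, 388.3 and 531.3 and then 1969, 2124 and 1073, without overlap (1.84, limma adjusted p = 0.000188). The signals of Xist did not overlap between the stages, at 11920, 11590 and 12170 and then 16030, 16750 and 18580, and was not called (0.52 ± 1.19, limma adjusted p = 0.867, the SE being taken from all 18 ovary arrays). When only the 6 compared arrays were fitted, the log2 change of Xist was called (limma adjusted p = 0.0269), and in the other alternatives it was not (limma adjusted p 0.785 to 0.967).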
